A study of Mus musculus with 12 samples.

Results

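Tumour necrosis factor signalling in liver was followed through 5 genes of a focused mouse cDNA array, from a receptor (Tnfrsf1a) through a stress kinase (Mapk8) and a subunit of the transcription factor AP-1 (Jun) to a chemokine and a stress-induced enzyme (Ccl2 and Hmox1). The genes were taken by name or synonym from the raw spot table, which lists 330 genes on 354 gene spots, and each of the 5 has 1 spot. All 12 mice were male ApoEshl mice, a strain lacking apolipoprotein E, so that both groups carry the Apoe defect. They were 7 to 8 weeks old per the labels, and the diets lasted 12 weeks. A group of 6 mice ate the high-fat diet (HFD), and the other 6 ate the HFD with 5% fucoidan, a sulphated sugar polymer from brown algae. Total liver RNA of each mouse (10 micrograms) was labelled with Alexa Fluor555 and hybridised alone. The mice on normal diet and on 1% fucoidan that the protocol mentions were not analysed here.

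Tumour necrosis factor binds the receptor TNFR1 on the cell surface, and adaptors at the receptor pass the signal to the kinase JNK and to NF-kappaB. JNK phosphorylates c-Jun, which pairs with other leucine zipper proteins as AP-1 and switches on genes for chemokines, acute-phase proteins and stress enzymes. In fatty liver this pathway links lipid excess and macrophage products to inflammation and to weaker insulin signalling in hepatocytes. Phosphorylation and protein levels are not read by a cDNA array, so the values below are transcript levels only.

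Of the 5 genes, Jun alone passed the test as listed, with a higher level in all 6 fucoidan mice, and 15 of the 181 genes tested on the array (8.29%) passed. The Jun spot, however, lists the same local background as a spot of the ribosomal gene Rps18 on all 12 arrays. The spots of Tnfrsf1a and Hmox1, which passed both checks of the table described below, gave lower mean levels with fucoidan, and neither difference passed the test. Mapk8 was higher and Ccl2 lower on average, neither past the test, and both on spots whose listed values are tied to another gene's.

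All 5 spots were above the detection limit (mean plus 2 SD of empty and negative control spots, 121 to 143 intensity units) on 12 of 12 arrays. The median spot foreground ran from 127 to 186.5 over the arrays, and 195 to 210 gene spots per array were above the limit. All arrays lie on 1 slide image. The HFD arrays fill blocks 1 to 12 and the fucoidan arrays blocks 13 to 24, and slide position cannot be told apart from diet. Of 7 hepatocyte markers 4 were measured, of which Apoa1 and Apoa2 were above the limit on 12 arrays on spots that passed both checks. Apoa1 differed by 0.62 and Apoa2 by 0.25 on the log2 scale (limma adjusted p = 0.0637 and 0.0828), with 6 of 6 fucoidan mice above the HFD mean for each, and by 0.01 and −0.07 with housekeeping scaling. The same count of mice held for the housekeeping gene B2m (limma adjusted p = 0.375). Of the other hepatocyte markers Cyp7a1 (called lower) and Hnf4a stood on failed spots. Of the 2 adipocyte markers tested Cfd was called lower on a failed spot. The other, Fabp4, differed by 0.03 on the log2 scale (SE 0.30) on a spot that passed both checks. Of the 2 stellate and endothelial markers (Nos3 and Kdr) none was called. Of 7 housekeeping genes Gapdh was called higher, by 0.41 on the log2 scale (SE 0.10, limma adjusted p = 0.0317), with a spot that shares its background. The median over the 7 was 0.18, all 7 values were above 0, and none of the other 6 passed the test. Actb, B2m and Eef1a1 were below 0 with housekeeping scaling. That scaling centres each array on housekeeping spots that passed both checks, theirs among them. It therefore cannot show whether these genes shifted. What part the marker and housekeeping differences have in the members' values was not tested. The numbers of the mice are taken as separate animals from the labels, and the number of arrays limits the precision.

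Each spot has a foreground, the background around it and a listed difference. The first check required that foreground minus background match the listed difference within 0.5 on all arrays, with every value present and within the 16-bit range. A second check asked whether a spot listed the same background as another gene spot on all 12 arrays. Of the 354 gene spots 41 failed the first check, 25 shared their background, and 53 met either condition. None of the 41 empty and negative control spots failed. Tnfrsf1a and Hmox1 passed both checks, and no other spot matched the background of Tnfrsf1a on more than 5 arrays or of Hmox1 on more than 3.

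The Mapk8 spot passed the first check and shared all 12 backgrounds with a spot of Rps18 (ribosomal protein S18, a housekeeping gene with 4 spots) in another set of blocks. The Mapk8 foreground equalled the Rps18 foreground on 8 arrays. It was higher by 2200 units on HFD replicate 3 and by 2800, 5700 and 2100 on fucoidan replicates 2, 3 and 4. On the 4 arrays where Mapk8 departs from Rps18, the gaps are multiples of 100.

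The Jun spot listed a difference off by 100 units on 3 arrays and shared all 12 backgrounds with another Rps18 spot. On HFD replicates 1 to 6 its foreground minus that of Rps18 was 0, −800, 0, 0, 100 and −800 units. On fucoidan replicates 1 to 6 it was 2000, 1500, 3100, 1900, 2200 and 1800 units. Jun was thus at or near the Rps18 reading or below it with HFD, and above it in every fucoidan mouse, again by multiples of 100.

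The Ccl2 spot failed the first check on all 12 arrays, with gaps of 6 to 18868 units (median 35.5). Its largest gap was on HFD replicate 5, with a foreground of 21025 and a listed difference of 2043. Its background equalled that of Vapa, which encodes a membrane protein of the endoplasmic reticulum, on 8 arrays. With the Vapa values of HFD replicates 4 and 5 exchanged, and likewise those of fucoidan replicates 1 and 6, the backgrounds were equal on all 12 arrays. Matched in that order, the Ccl2 foreground minus that of Vapa was a multiple of 100 on 12 of 12 arrays. It ran from 0 (fucoidan replicate 3) to 20000 units.

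Such ties were rare in the table. Among 62481 pairs of gene spots, 14 shared the background on all 12 arrays, and in 11 pairs the foregrounds differed by multiples of 100 on all 12 arrays. All 11 were among the 14. Over 99 spots with a foreground above 500 on every array, 1.06% of 58092 comparisons between spots without a shared background differed by a multiple of 100. Summary lines in the same file print an average background that differs from the average of the listed cells in 12 of 12 blocks of each set. In the set that holds Tnfrsf1a, Mapk8 and Jun the gap was 0.369 to 1.20 units, and the printed coefficient of variation was 6.94% to 9.51% against 10.95% to 17.69% from the listed cells. In the set that holds Ccl2 and Hmox1 the gap was 0.0859 to 0.545 units, and the printed coefficient of variation was 4.57% to 9.91% against 5.21% to 10.1%. The sources used here do not say how the listed values came to be so, and the levels of Mapk8, Jun and Ccl2 below are given as listed.

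**Figure D1:**
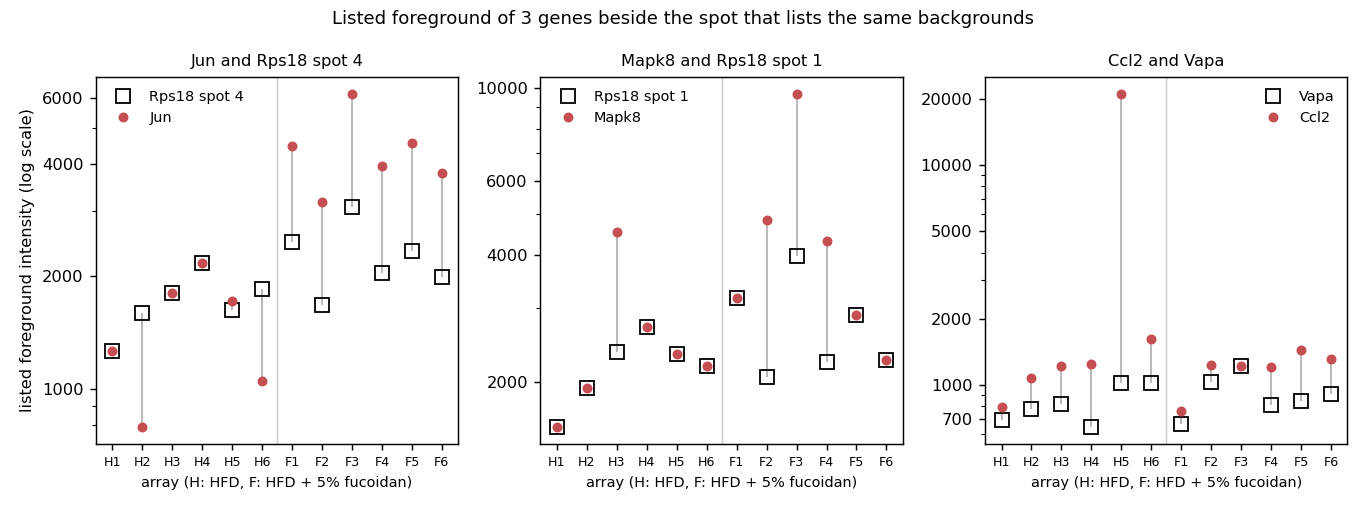
Listed foreground intensity (log axis) of Jun, Mapk8 and Ccl2 (filled circles) beside the spot that lists the same backgrounds (open squares), on HFD arrays H1 to H6 and fucoidan arrays F1 to F6, with grey lines joining the values of an array. Jun lies above its Rps18 spot on all 6 fucoidan arrays, and Mapk8 coincides with its Rps18 spot on 8 arrays. Vapa is drawn after the exchange. The squares at H4, H5, F1 and F6, joined there to Ccl2 by the grey lines, are thus Vapa values of the exchanged array.

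Tnfrsf1a (chromosome 6, 125349723 to 125362483, GRCm38.p6) encodes TNFR1, the receptor that most liver cells carry. Its foreground had a lowest value of 397, a median of 501.5 and a highest of 649 in HFD mice, and of 320, 393.5 and 586 in fucoidan mice. The groups overlapped, and the fucoidan median lay below the lowest HFD value. On the log2 scale, after background correction and quantile normalisation, the level was 8.97 ± 0.28 (SD, n = 6) with HFD and 8.59 ± 0.19 (SD, n = 6) with fucoidan. The difference was −0.39 (SE 0.13, 95% interval −0.68 to −0.10, fold 0.765), with 6 of 6 fucoidan mice below the HFD mean. It did not pass the limma test after Benjamini-Hochberg adjustment over 181 genes (adjusted p = 0.0970, unadjusted p = 0.0134), and 22.1% of those genes had an unadjusted p under 0.05. All 6 fucoidan mice were also below the HFD mean for Tnfrsf1b and Ccl2 (limma adjusted p = 0.588 and 0.517). The Tnfrsf1a difference was −0.26 with median normalisation (limma adjusted p = 0.351) and −0.27 with none (limma adjusted p = 0.628). On the linear foreground the exact permutation test (two-sided) gave p = 0.206. In whole liver, fewer cells of a type and less RNA per cell cannot be told apart, here or in any result that follows.

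Little else at the receptor could be measured. Tnfrsf1b, the second receptor for tumour necrosis factor and more a gene of immune cells, differed by −0.13 on the log2 scale (SE 0.13, limma adjusted p = 0.588). Tnf, which encodes the ligand, was not above the limit on any array, with a foreground of 61.3 ± 3.14 (SD, n = 6) with HFD and 60.5 ± 1.05 (SD, n = 6) with fucoidan. The adaptor genes Tradd and Traf2 were above the limit on 0 arrays. Of the 12 genes listed for this step 5 were on the array and 2 could be tested.

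Mapk8 (chromosome 14, 33377898 to 33447353) encodes JNK1. Its listed foreground had a lowest value of 1559, a median of 2248.5 and a highest of 4546 in HFD mice, and of 2252, 3745 and 9691 in fucoidan mice. The groups overlapped, and the highest HFD value and the 3 highest fucoidan values are those on which Mapk8 departs from Rps18. The normalised level was 11.33 ± 0.34 with HFD and 12.04 ± 0.70 with fucoidan (SD, n = 6 each). The difference of 0.71 (SE 0.29, 95% interval 0.07 to 1.35) did not pass the test (limma adjusted p = 0.155), with 5 of 6 fucoidan mice above the HFD mean. The Rps18 spot itself averaged 2172 ± 391 and 2762 ± 740 units (SD, n = 6 each), a ratio of 1.271 (exact permutation test, two-sided, p = 0.115). What part the shared values have in the Mapk8 difference was not tested.

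Other measured kinases of this step, Mapk14, Mapk3 and Map2k1, stood on spots that passed both checks, and none passed the test. Mapk14, which encodes the stress kinase p38alpha, differed by 0.11 on the log2 scale (SE 0.08, 95% interval −0.07 to 0.29). Mapk3, which encodes the growth factor kinase ERK1, differed by 0.01 (SE 0.09). Map2k1, which encodes the ERK-activating kinase MEK1, differed by 0.06 (SE 0.07). These 3 values are small, and all 3 turned negative (−0.16 to −0.12) when arrays were scaled on housekeeping genes. Of 17 genes listed, 7 were on the array and 5 tested, with 0 called in either direction, and Prkcq and Ikbkb were below the limit on too many arrays.

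Jun (chromosome 4, 95049036 to 95052222) encodes c-Jun. The Jun promoter is shown because a site that AP-1 binds lies in it, through which c-Jun is known to act on its own gene. The RefSeq window chr4:95052173-95052472 (GRCm38.p6, minus strand) runs from 250 bases before the gene start to 50 after it, with the motif TGACATCA in capitals.
Jun promoter: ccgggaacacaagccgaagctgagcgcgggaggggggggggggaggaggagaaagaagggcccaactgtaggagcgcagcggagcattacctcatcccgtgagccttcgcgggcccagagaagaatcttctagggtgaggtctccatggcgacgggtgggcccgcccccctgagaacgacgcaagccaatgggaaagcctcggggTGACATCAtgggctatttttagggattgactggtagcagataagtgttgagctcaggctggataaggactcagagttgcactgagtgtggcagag
TGACATCA and its reverse complement TGATGTCA were searched on both strands. The window holds 1 match, 45 bases before the gene start, and 1189 of 32851 such windows in the table (3.62%) hold it. The match is a description of the letters, and binding was not measured.

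The listed Jun foreground had a lowest value of 789, a median of 1489 and a highest of 2167 in HFD mice, and of 3170, 4205 and 6165 in fucoidan mice. The groups did not overlap, in the listed foreground or in the normalised level. In normalised level this held for 6.08% of the 181 genes tested and for 0 of the 139 on spots that passed both checks. The normalised level was 10.54 ± 0.56 with HFD and 12.08 ± 0.12 with fucoidan (SD, n = 6 each). Jun as listed rose by 1.54 on the log2 scale (SE 0.22, 95% interval 1.06 to 2.02, fold 2.91), with limma adjusted p = 0.000769. It was 1 of 7 genes called higher (3.87% of those tested), against 8 called lower (4.42%). The split was 2 higher and 10 lower with no normalisation, 5 and 9 with median normalisation and 2 and 9 with housekeeping scaling. The exact permutation test on the listed foreground gave p = 0.00216, the smallest that 6 against 6 mice allow, or 0.0162 adjusted over 15 tests of the 5 spots.

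The background columns of the 5 spots did not pass that test, with exact p from 0.253 to 1, so the Jun difference sits in the foreground column. The Rps18 spot with the same backgrounds averaged 1714 ± 305 units with HFD and 2263 ± 483 with fucoidan (SD, n = 6 each), a ratio of 1.32 (exact permutation test, two-sided, p = 0.0346). The ratio for Jun was 2.97. Of the 15 called genes 12 stood on spots that failed or shared a background, out of 42 such genes tested. When the failed spots were left out, Jun had no value and limma called 0 of 147 genes (16 at an unadjusted p under 0.05).

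The other 4 transcription factor genes measured were all on spots that passed both checks, and none passed the test. Nfkb1, which encodes the p50 subunit of NF-kappaB and its precursor, differed by −0.15 on the log2 scale (SE 0.07). Nfkbia, which encodes the NF-kappaB inhibitor IkappaBalpha, differed by −0.33 (SE 0.26), with HFD replicate 1 at 9.86 and the other 5 HFD mice between 8.16 and 8.74. Stat3, the factor that carries interleukin 6 signals, and Cebpb, a factor of the acute-phase response, differed by −0.31 (SE 0.19) and −0.44 (SE 0.26). HFD replicate 1 was the highest of the 12 mice for Nfkbia, Stat3 (9.95) and Cebpb (11.95), and without it the differences were −0.10, −0.21 and −0.24. The median over the 4 genes was −0.32, beside 0.06 over the 139 genes on such spots, with no test of the list. Cebpb was −0.17 with no normalisation or with median normalisation. Of 14 factors listed 5 were on the array, all were tested, and Jun alone was called.

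**Figure D2:**
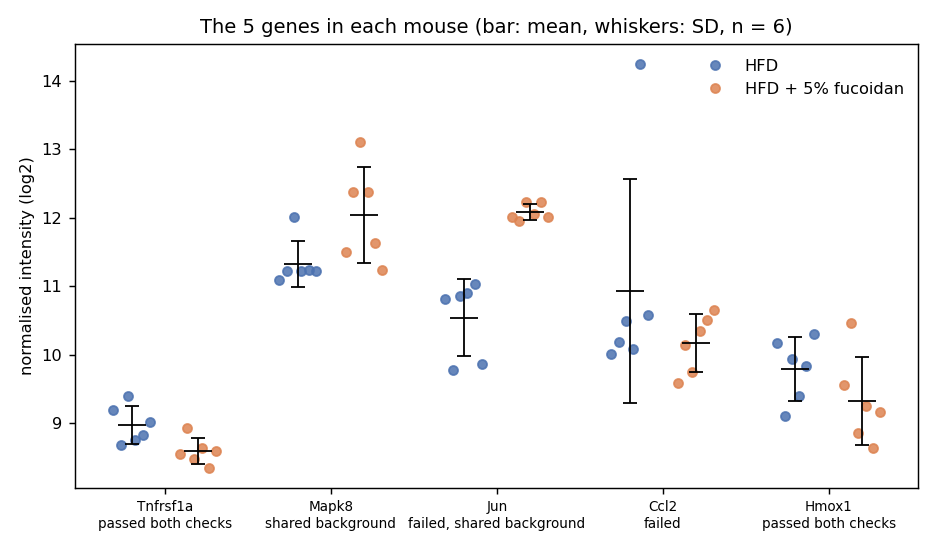
Normalised log2 level of the 5 genes in each mouse (points), with the group mean and SD (bars), for HFD and HFD with 5% fucoidan. Jun alone shows groups that do not overlap, and Ccl2 has 1 HFD mouse at 14.25, far above the other 11.

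Ccl2 (chromosome 11, 82035577 to 82037452) encodes MCP-1, the chemokine that draws monocytes. Its listed foreground had a lowest value of 798, a median of 1234 and a highest of 21025 in HFD mice, and of 764, 1225.5 and 1447 in fucoidan mice. The medians were nearly the same, and the high HFD mean came from replicate 5, the array with the largest gap between foreground and listed difference. The difference in normalised level was −0.77 (SE 0.63, 95% interval −2.14 to 0.60, limma adjusted p = 0.517). It was −0.11 without HFD replicate 5 and −0.34 with the listed differences in place of the corrected foregrounds.

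Most cytokine genes of the array were too low to follow. Tnf and Il6, the main cytokines of the hepatic acute-phase response, and Il10, Icam1 and Nos2 were among 8 of 13 output genes that were not tested, and the Il6 foreground averaged 65.3 units with HFD and 65 with fucoidan. Cfd, which encodes the complement protease factor D, fell by 0.60 on the log2 scale (limma adjusted p = 0.00609) on a spot that failed the first check. Crp, for C-reactive protein, differed by −0.09 (SE 0.16) on a spot that passed both checks. Nos3, the endothelial nitric oxide synthase, differed by −0.45 on a failed spot and turned to 0.13 with 1 mouse left out. Of 5 genes of this group tested, 0 were called higher and 2 lower, both on failed spots. Of 10 macrophage and leukocyte markers listed, Cd36 and Ccl2 were measured, and Cd36, a fatty acid transporter that other cells express too, differed by −0.07 (SE 0.36).

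Hmox1 (chromosome 8, 75093618 to 75100593) encodes haem oxygenase 1, an enzyme induced by oxidants and haem and abundant in liver macrophages. Its foreground had a lowest value of 586, a median of 868.5 and a highest of 1413 in HFD mice, and of 409, 607.5 and 1578 in fucoidan mice. The groups overlapped widely, and fucoidan replicate 2 held the highest value of all 12 mice. The normalised level was 9.79 ± 0.46 with HFD and 9.32 ± 0.64 with fucoidan (SD, n = 6 each). The difference of −0.47 (SE 0.30, 95% interval −1.12 to 0.18) did not pass the test (limma adjusted p = 0.375), with 5 of 6 fucoidan mice below the HFD mean. It was −0.70 without fucoidan replicate 2 (limma adjusted p = 0.0967) and −0.34 without fucoidan replicate 5 (limma adjusted p = 0.580). When only spots that passed both checks were fitted, Hmox1 differed by −0.49 (SE 0.29, adjusted p = 0.606) and Tnfrsf1a by −0.36 (SE 0.14, adjusted p = 0.281).

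Of the other stress genes, Ucp2, which encodes a mitochondrial uncoupling protein, differed by −0.03 (SE 0.10) on a spot that passed both checks. Cdkn1a, which encodes the cell-cycle inhibitor p21, fell by 2.07 (SE 0.54, limma adjusted p = 0.0317) on a failed spot. Its level was 14.94 in HFD replicate 1 and 11.25 to 11.62 in the other HFD mice, and without HFD replicate 1 the difference was −1.50. Among genes that damp cytokine and insulin signals, Socs3, the feedback inhibitor of interleukin 6 receptor signalling, fell by 1.55 (SE 0.14, limma adjusted p = 1.84e-05) on a failed spot. On spots that passed both checks, Ptpn1, a phosphatase of the insulin receptor, differed by −0.15, and the insulin-regulated kinases Akt1 and Akt2 by 0.11 and −0.14. None of these 3 passed the test, and Akt1 turned to −0.08 with housekeeping scaling and Akt2 to 0.00313 with median normalisation. Every called gene of the pathway lists was on a failed spot or one that shared its background.

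**Figure D3:**
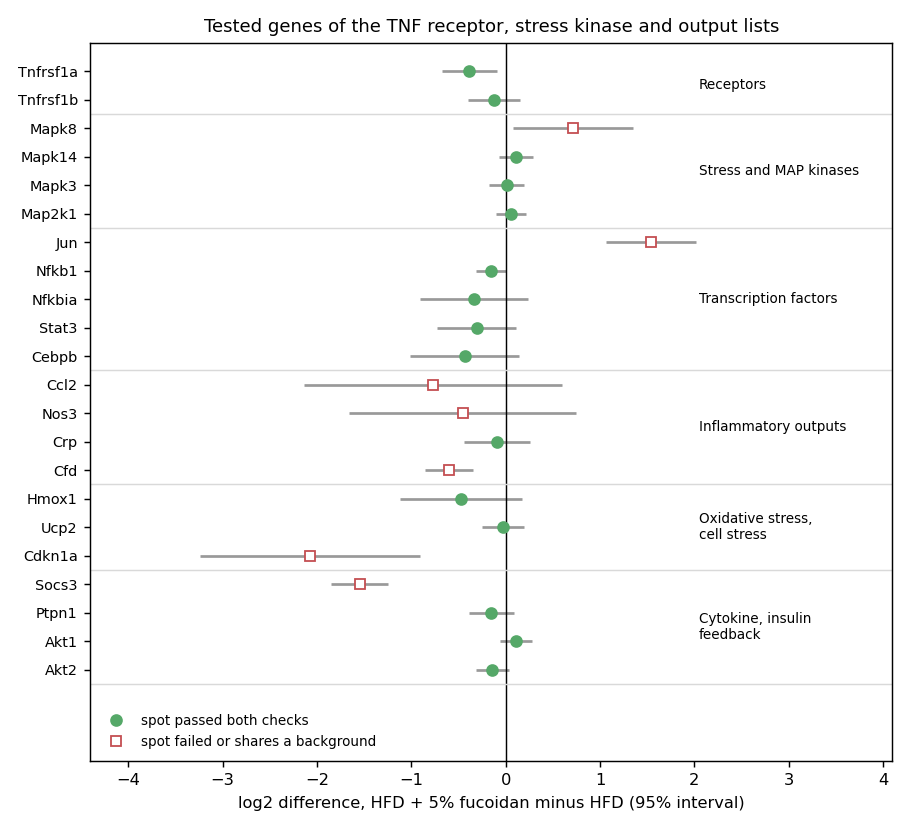
Difference in normalised log2 level, HFD with 5% fucoidan minus HFD, with its 95% interval, for tested genes of the pathway lists. Filled circles are spots that passed both checks, open squares are spots that failed or share a background, and the widest shifts (Jun at 1.54, Socs3 at −1.55, Cdkn1a at −2.07) are open squares.

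The chain was then followed from mouse to mouse, with group means subtracted so that diet does not enter. Of the 10 pairs among the 5 genes, Tnfrsf1a and Hmox1 varied together (Pearson r = 0.77 over 12 mice, permutation p = 0.00343, adjusted p = 0.0343). Spearman rho was 0.78 (permutation p = 0.00505, adjusted p = 0.0505), and r was 0.81 without the 2 mice farthest from the median of Tnfrsf1a (permutation p = 0.0103). Within HFD mice r was 0.70 (exact permutation p = 0.135) and within fucoidan mice 0.94 (exact permutation p = 0.00972). Fucoidan replicate 2 was the highest fucoidan mouse for both genes, and fucoidan replicate 5 the lowest. Both spots passed both checks and lie in different sets of blocks, yet each pair of values shares a mouse, an RNA sample and a normalisation.

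The other 9 pairs, which include each link through Mapk8, Jun or Ccl2, had r from −0.17 to 0.35 and an adjusted permutation p of 0.967 each. Tnfrsf1a and Mapk8 had r = 0.33, Mapk8 and Jun 0.16, and Jun and Ccl2 0.35. For Jun and Ccl2, where Ccl2 stood at 14.25 in HFD replicate 5, Spearman rho was 0.0035 (permutation p = 0.995). From the listed differences, a measure chosen after seeing the data, Tnfrsf1a and Mapk8 had r = 0.66 (permutation p = 0.0311, adjusted p = 0.156) and Mapk8 and Jun r = 0.52 (adjusted permutation p = 0.224), so the size of these r depends on the measure. Within fucoidan mice Jun had r = −0.81 with Tnfrsf1a (exact permutation p = 0.0333) and −0.83 with Hmox1 (exact permutation p = 0.0278), unadjusted, against 0.30 and 0.16 within HFD mice. From the listed differences these fucoidan values were −0.08 and −0.42, and the difference between diets was not tested. Each link through Mapk8, Jun or Ccl2 rests on at least 1 spot that failed or shares its background.

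**Figure D4:**
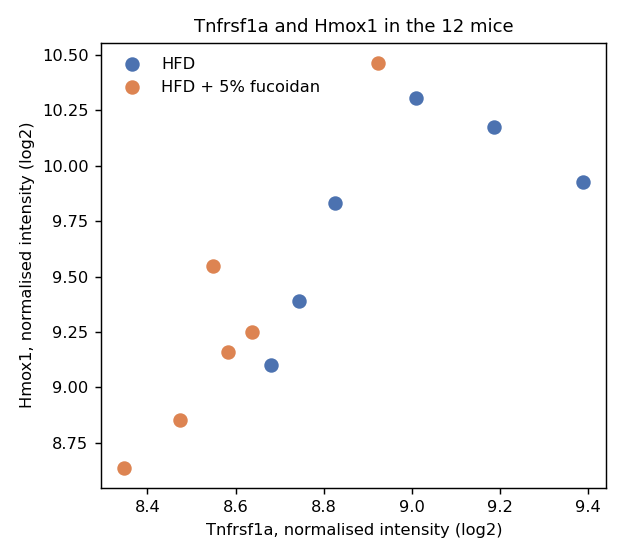
Normalised log2 level of Hmox1 against Tnfrsf1a in the 12 mice, coloured by group. The points rise together (r = 0.70 within HFD and 0.94 within fucoidan mice), and fucoidan replicate 2 is the highest fucoidan mouse on both axes.

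The genes most like each member over the 12 mice, by Pearson r of normalised levels with diet not removed, are given as a description. For Tnfrsf1a the first 2 were Stat3 (0.88) and Hmox1 (0.80). For Hmox1 they were Tnfrsf1a (0.80), Cebpa (0.78), a factor of hepatocyte identity, and Ucp2 (0.77). Hmox1 was thus nearest to Tnfrsf1a, which was itself nearest to Stat3, a factor of cytokine signalling. For Jun they were Tcf1 as listed (0.84, failed spot) and the apolipoprotein genes Apoa1 (0.79) and Apoa2 (0.78). For Mapk8 they were Ppara (0.78, failed spot), Plcg1 (0.71) and Gk (0.71), and for Ccl2 Fabp5 (0.78), Acss2 (0.69, failed spot) and Insig1 (0.66). The Ccl2 values include HFD replicate 5, at 14.25 against a group median of 10.33, and were not computed without it.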

How the data were processed

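For each spot and array the authors deposited linear intensity values (foreground, background, listed difference), read with GenePix Pro 6.0.1.27 from a GenePix 4000B scan at 532 nm, per the file headers. The sources used here do not describe later handling of the table. Groups came from the sample labels, and 0 sample columns were left unused. Of the listed names 315 were current symbols, 15 matched by synonym and 1 was kept as listed.

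With limma 3.58.1 in R 4.3.3, foregrounds were corrected by normexp with an offset of 50, quantile normalised over gene spots and tested on the log2 scale (lmFit, eBayes, two-sided, Benjamini-Hochberg, threshold 0.05). The fit took the 181 genes above the detection limit on at least 6 of 12 arrays. Permutation tests used Python 3.11.15 with scipy 1.17.1, except the exact test over all genes, which was run in R. Tests between the groups were exact, over all splits of the 12 mice into 6 and 6. Correlations were tested exactly within groups of 6, and over all 12 mice with 100000 resamples within groups. On simulated tables of 181 genes the fit recovered 0.665 of changes of 0.5 log2 and 0.89 of changes of 1 log2, with 0.0449 of calls false. Those tables drew each gene independently on the normalised scale, without the normalisation step or ties between spots. These shares may therefore not hold for the deposited values.

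Named genes are the 5 members, genes whose spots share a member's backgrounds, measured genes of fixed pathway and marker lists, and the 3 genes most like each member. Some genes that this rule names are not reported here. Members and lists were chosen with earlier results of these data known. Vapa was named after its values were seen, for its ties to Ccl2. Alternatives varied the background, normalisation, detection filter, spots left out, replicate block and each mouse left out. Same-numbered arrays of the groups had correlated deviations of −0.24 to 0.16, so the numbers were not taken to pair mice.

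A second deposited table holds linear intensity values, which the authors made by steps that no source used here describes. None of its rows, unnamed in the file, lay within 1 of a member's listed difference on more than 1 array, so it gave a count only. For HFD replicates 1 to 6 its column medians were 139.5, 116, 132, 129.5, 121 and 113.5. Those of the fucoidan arrays, in replicate order, were 171, 155, 126, 102.5, 119 and 135. The scale, centring and normalisation of that table are unknown.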

Additional observations from a re-analysis of the deposited data

Results flagged for a closer look

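Of 10 groups of 6 values (5 genes, each on both diets), 2 held a mouse far from the other 5 by Dixon's test, and chance gives about 1 in 20 such groups. Mapk8 in HFD replicate 3 stood at 12.01 on the normalised log2 scale, against a group median of 11.21, with a gap of 0.832 of the group's range. This is the HFD array on which the Mapk8 foreground lies 2200 units above the Rps18 spot with the same backgrounds. Ccl2 in HFD replicate 5 stood at 14.25, against a group median of 10.33, with a gap of 0.865 of the range. This is the array that lists a foreground of 21025 beside a difference of 2043.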

How the results depend on the processing

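The 5 genes kept their direction and their side of the threshold in every alternative that gave them a value. Leaving out 1 mouse at a time gave log2 differences of −0.45 to −0.31 for Tnfrsf1a, 0.50 to 0.88 for Mapk8, 1.38 to 1.61 for Jun, −0.95 to −0.11 for Ccl2 and −0.70 to −0.34 for Hmox1. Over the alternatives the limma adjusted p of Jun ran from 0.000504 to 0.00341, and its exact permutation p adjusted over all genes was 0.0354. The lowest adjusted p of the other 4 was 0.0537, for Mapk8 with the replicate block. Tnfrsf1a ran from −0.47 to −0.26 over the alternatives that kept all mice. Jun and Ccl2 have no value without failed spots, and Jun and Mapk8 none without spots that share a background. The count of genes past the threshold was 15, and 9 to 17 with 1 mouse left out (9 without HFD replicate 3 and 9 without HFD replicate 5). It was 25 with listed differences, 39 in the deposited value table, 0 without failed spots (smallest adjusted p 0.207) and 0 without failed and sharing spots (14 at an unadjusted p under 0.05). Without background-sharing spots only, an alternative chosen after seeing the data, it was 7. With the replicate number as a block it was 9, and the block changed no call among the 5 genes. Except where spots or mice were left out, the cause of these shifts was not tested. Housekeeping scaling moved the median log2 difference of all genes from 0.05 to −0.10. Signal near background limits what can be said of Tnf, Il6 and the adaptors.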
